A study of Homo sapiens with 32 samples.

Results

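The circadian clock genes PER1, PER2, PER3, CRY1, CRY2, NR1D1, NR1D2, DBP, ARNTL (the gene of BMAL1) and BHLHE40 were read by gene name from the count tables of HEK293 cells after 6 h and 24 h. All 10 were found among the 57773 genes listed. All 10 also passed the filter on low counts, which kept 18618 genes after 6 h and 22174 after 24 h. The rule used names and no measured value. HEK293 is a human cell line derived from embryonic kidney. Every culture, Control included, had been transiently transfected with an expression plasmid for the human angiotensin II receptor type 1 (AT1R), so that all comparisons were made in cells of a transfected population. Serum was withdrawn before the stimuli. The groups were Control (no stimulus), AngII (angiotensin II, 1 nM), EGF (epidermal growth factor, 10 µg/L) and EGF+AngII (both at these doses), with 4 libraries per condition and time point, except that counts of 3 EGF+AngII libraries were analysed after 24 h. Each time point had its own Control libraries. The labels name no treatment that sets the phase of the clock and do not say whether the libraries of a group came from separate cultures, so that p-values measure the spread between libraries, which may be technical.

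The molecular clock is a loop of transcription and feedback. BMAL1, paired with CLOCK or its paralogue NPAS2, binds E-boxes and activates PER, CRY, NR1D and DBP genes, and the PER and CRY proteins then repress this pair. The nuclear receptors NR1D1 and NR1D2 (REV-ERB alpha and beta) repress ARNTL, the factor DBP carries the rhythm to D-box genes, and BHLHE40 (DEC1) is a repressor that competes for E-boxes. Growth factors and serum are known to act on this loop in cultured cells through PER1 and related immediate early genes.

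The data are whole-number read counts per gene from ribosomal RNA-depleted total RNA. Total counts were 3881841 to 8540815 per library after 6 h and 6646227 to 33070903 after 24 h. Protein-coding genes took 81.4% to 84.7% of the counts after 6 h but 20.8% to 63.4% after 24 h, where U1 small nuclear RNA genes took 8.90% to 57.2%. The coefficient of biological variation estimated by edgeR was 10.6% after 6 h and 29.1% after 24 h, so that smaller differences could be detected after 6 h. The transfected receptor gene, AGTR1, was counted in every library, at 950.1 to 1568 FPM (fragments per 1000000 counts after TMM scaling) after 6 h and 368.9 to 685 FPM after 24 h. Because protein-coding genes take different shares of the counts after 6 h and after 24 h, these levels are not compared between the time points. After 6 h AGTR1 differed by AngII, at 1318 to 1568 FPM in the libraries with AngII and 950.1 to 1236 FPM in those without it. After 24 h these groups overlapped. The part of this difference in the AngII and interaction results was not tested. For the marker genes below, FPM stands for fragments per 1000000 protein-coding counts, a different scale from that of AGTR1 and the clock genes. Of 7 genes that HEK293 cells are known to express, PAX2 had a median of 0.40 FPM after 6 h and 0.75 FPM after 24 h. The other 6 had a median above 1 FPM at each time point. None of the markers found for blood (3), endothelium (2) and podocytes (2) did, whereas 2 of 4 markers of proximal tubule (CUBN and AQP1) and 2 of 3 of fibroblasts (COL1A1 and COL3A1) did at each time point, with SLC34A1, SLC22A6 and DCN at a median of 0 FPM after 6 h. After 6 h the summed proximal tubule markers lay between 7.27 and 16.1 FPM without EGF and between 5.40 and 8.66 FPM with it, and the summed HEK293 genes between 1419 and 1583 FPM without and between 1596 and 1935 FPM with it. After 24 h the tubule markers lay between 4.462 and 13.35 FPM without EGF and between 5.978 and 14.46 FPM with it. The HEK293 genes then lay between 4282 and 4936 FPM without EGF and between 6954 and 10110 FPM with it. NEFM alone ranged from 2912 to 8307 FPM after 24 h. The part of these markers in the results was not tested. In bulk RNA, fewer cells expressing a gene and less RNA per cell cannot be told apart.

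Because the E-box is the shared element of this loop, the 250 bases before each RefSeq transcription start of the 10 genes (14 starts, GRCh38.p14) were searched for CACGTG, which reads the same on both strands. It was found before PER1, NR1D2 and BHLHE40, in 3 of 10 genes and 3 of 14 windows, and in 6.34% of 35116 such windows over all genes. The windows of the 10 genes that hold it are shown 5′ to 3′ on the strand of the gene, with the E-box in capitals. They are chr17:8152405-8152654 on the minus strand for PER1, chr3:23945871-23946120 on the plus strand for the second start of NR1D2 and chr3:4979187-4979436 on the plus strand for BHLHE40.
PER1: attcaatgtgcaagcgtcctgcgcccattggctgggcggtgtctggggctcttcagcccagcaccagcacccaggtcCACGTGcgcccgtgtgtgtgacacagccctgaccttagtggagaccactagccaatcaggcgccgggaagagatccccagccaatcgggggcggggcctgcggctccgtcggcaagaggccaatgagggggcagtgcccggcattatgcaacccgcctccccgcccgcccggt
NR1D2: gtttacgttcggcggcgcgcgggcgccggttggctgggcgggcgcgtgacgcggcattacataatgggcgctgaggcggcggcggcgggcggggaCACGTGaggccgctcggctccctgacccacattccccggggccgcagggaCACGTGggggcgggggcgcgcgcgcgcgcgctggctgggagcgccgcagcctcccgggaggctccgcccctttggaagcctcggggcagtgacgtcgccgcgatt
BHLHE40: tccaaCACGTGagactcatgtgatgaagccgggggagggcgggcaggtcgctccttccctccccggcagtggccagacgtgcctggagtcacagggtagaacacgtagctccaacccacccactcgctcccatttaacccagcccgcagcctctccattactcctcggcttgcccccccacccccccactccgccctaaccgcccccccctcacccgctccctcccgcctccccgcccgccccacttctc
The E-box lies 173 to 168 bases before the start in PER1 and 245 to 240 bases before it in BHLHE40, and NR1D2 holds a pair, at 155 to 150 and 105 to 100 bases. The windows of DBP and CRY1 and the first start of NR1D2 hold none. The NR1D2 window also holds GCGGGGGCG at 96 to 88 bases. Of the 10 genes it alone held either GCGTGGGCG or GCGGGGGCG, the elements of EGR factors, which 5.37% of all windows hold on either strand. A D-box (TTATGTAA or TTACGTAA, either strand) lies before PER3 and NR1D2, in 2 of 14 windows, against 0.94% of all windows. The full CRE (TGACGTCA) and the AP-1 element TGANTCA were found before none of the 10, against 1.65% and 6.57% of all windows. Shorter elements were searched too. TGACG, a part of the CRE, was found before 4 of the 10 genes, in 5 of 14 windows (21.2% of all windows). AGGTCA, which nuclear receptors bind, was found before 2, in 3 of 14 windows (12.1%). Such matches describe these letters in these windows only.

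In Control cells after 6 h, NR1D2 and BHLHE40 were the most abundant of the 10 genes per length of exon. NR1D2 had 19.9 ± 2.10 FPKM (fragments per kilobase of exon and 1000000 protein-coding counts, SD, n = 4) and BHLHE40 16.2 ± 2.20 FPKM, and their ranges overlapped. CRY1 followed with 8.44 ± 0.743 FPKM, below both and above PER1 (5.54 ± 0.573) and CRY2 (5.12 ± 0.419), which overlapped with each other. PER2 (2.33 ± 0.324), NR1D1 (1.73 ± 0.438), DBP (1.37 ± 0.0908) and ARNTL (0.917 ± 0.289) formed a row in which neighbours overlapped. PER3 was lowest with 0.516 ± 0.0493 FPKM and did not overlap with ARNTL. The activator ARNTL was therefore among the least abundant, at 15 to 45 counts per Control library. The order of the lower genes depends on the length used: by the length of the representative MANE transcript DBP moved from rank 8 to rank 6, since its annotated exons cover 6485 bases and that transcript 2170. After 24 h the Control order differed only at its top, with BHLHE40 at 37.2 ± 17.1 and NR1D2 at 20.8 ± 2.01 FPKM, and these ranges overlapped.

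After 6 h, 4 of the clock genes changed with EGF. Averaged over AngII, that is in 8 libraries with EGF against 8 without, BHLHE40 and CRY1 rose and NR1D2 and DBP fell, which is 4 of 10 genes, where 13.6% of all genes tested were called (edgeR quasi-likelihood test, adjusted p under 0.05). With the fold change above 1.5 and FPM above 5 that the study also asked for, BHLHE40 and DBP were called, against 1.8% of all genes. The median log2 fold change of the 10 genes was 0.00 and that of all genes tested was -0.02. The groups of 8 did not overlap for BHLHE40 and NR1D2, which held for 3.13% of all genes.

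BHLHE40 (chr3:5021122-5027008, plus strand, hg19), the E-box repressor, showed the largest change. Control libraries held 40.2, 54.1, 46.0 and 48.0 FPM and AngII libraries 43.0, 52.0, 44.2 and 45.4 FPM. EGF libraries held 86.4, 94.1, 74.8 and 82.1 FPM and EGF+AngII libraries 102.4, 116.8, 71.3 and 79.0 FPM. Every library with EGF thus lay above every library without it. BHLHE40 rose by 0.91 ± 0.09 on the log2 scale (SE), 1.88-fold, with an adjusted p of 1.37e-07 in edgeR. The exact two-sided permutation test over the 16 libraries gave 0.000155 before adjustment, the smallest p this design allows. This value follows from the lack of overlap and is no separate evidence. In the library series that is made of the first run of library numbers in the labels the rise was 1.07 and in the second 0.75, past the test in each. BHLHE40 shares 451 exon bases, 12.8% of its own, with BHLHE40-AS1 on the other strand, and the strand setting of the counting is unknown.

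NR1D2 (chr3:23986777-24022108, plus strand), the beta form of REV-ERB, fell. Control libraries held 88.1, 103.4, 102.9 and 87.7 FPM and AngII libraries 102.5, 87.2, 97.9 and 121.5 FPM. EGF libraries held 73.1, 69.5, 77.2 and 80.0 FPM and EGF+AngII libraries 71.7, 67.8, 69.0 and 65.0 FPM. The highest library with EGF was below the lowest without it. The log2 fold change was -0.46 ± 0.06, which is 0.725 times the level without EGF (adjusted p = 1.72e-05 in edgeR, exact permutation p = 0.000155). Its paralogue NR1D1 (chr17:38249046-38256842, minus strand) was far less abundant, with 2.72 to 6.66 FPM without EGF and 2.24 to 8.42 FPM with it. These ranges overlapped, and the log2 fold change of 0.18 did not pass the test (95% interval -0.26 to 0.62). NR1D1 shares 473 exon bases, 18% of its own, with THRA on the other strand, and the strand setting of the counting is not given in the sources used here.

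DBP (chr19:49133287-49140636, minus strand), the D-box activator and a direct output of the loop, fell. Control libraries held 7.63, 7.18, 6.71 and 7.94 FPM and AngII libraries 8.18, 7.04, 8.01 and 5.77 FPM, against 3.08, 4.33, 3.47 and 5.82 FPM with EGF and 4.29, 5.09, 4.25 and 4.81 FPM with EGF+AngII. A single EGF library reached the lowest AngII library. The log2 fold change was -0.73 ± 0.14, 0.604 times the level without EGF (adjusted p = 0.00108 in edgeR, exact permutation p = 0.000311). The counts behind it were low, 18 to 48 per library, and 10.2% of its exon bases are shared with SPHK2 on the other strand. Within the 2 library series the log2 fold changes were -0.83 and -0.63, with adjusted p of 0.052 and 0.13 in edgeR.

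Of the core repressors, CRY1 was the only one called with EGF averaged over AngII. CRY1 (chr12:107385142-107487327, minus strand) had 35.6, 28.9, 35.8 and 33.7 FPM in Control and 33.9, 29.0, 38.0 and 37.3 FPM in AngII libraries. It had 41.7, 34.2, 49.1 and 44.6 FPM in EGF and 45.9, 38.7, 41.0 and 52.2 FPM in EGF+AngII libraries. CRY1 rose by 0.36 ± 0.08 on the log2 scale, 1.28-fold (adjusted p = 0.00542 in edgeR, exact permutation p = 0.00155), although the groups overlapped. Within the library series the log2 values were 0.34 (adjusted p = 0.147 in edgeR) and 0.37 (adjusted p = 0.046). Its paralogue CRY2 (chr11:45868669-45904799, plus strand) had 22 to 28.4 FPM without EGF and 18.4 to 24.5 FPM with it, a log2 fold change of -0.21 that did not pass the test (adjusted p = 0.0717 in edgeR) and did among protein-coding genes only (adjusted p = 0.0474).

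The 3 PER genes, whose products form the repressor complex with CRY, gave no call after 6 h. PER1 (chr17:8043790-8059824, minus strand) had a median of 32.6 FPM without EGF (27.3 to 39.2) and 34.1 FPM with it (23.1 to 40.6). Its log2 fold change was 0.00, with a 95% interval from -0.22 to 0.22. PER2 (chr2:239152685-239198743, minus strand) had a median of 14 FPM without EGF and 13.6 FPM with it, and its interval ran from -0.21 to 0.23. PER3 (chr1:7844351-7905237, plus strand) had 2.24 to 4.76 FPM without EGF and 1.42 to 3.37 FPM with it, from 9 to 25 counts per library. Its log2 fold change of -0.40 (95% interval -0.83 to 0.02) was not called at this depth. PER3 shares 10.7% of its exon bases with UTS2 on the other strand.

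ARNTL (chr11:13298199-13408813, plus strand), the activator, had 3.47 to 7.18 FPM without EGF and 5.86 to 9.29 FPM with it. The log2 fold change was 0.42 ± 0.15, and the groups overlapped (adjusted p = 0.067 in edgeR, exact permutation p = 0.00699 before adjustment). ARNTL passed the test without Control replicate 2 (0.52, adjusted p = 0.0269), without EGF replicate 4 or without EGF+AngII replicate 3.

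**Figure D1:**
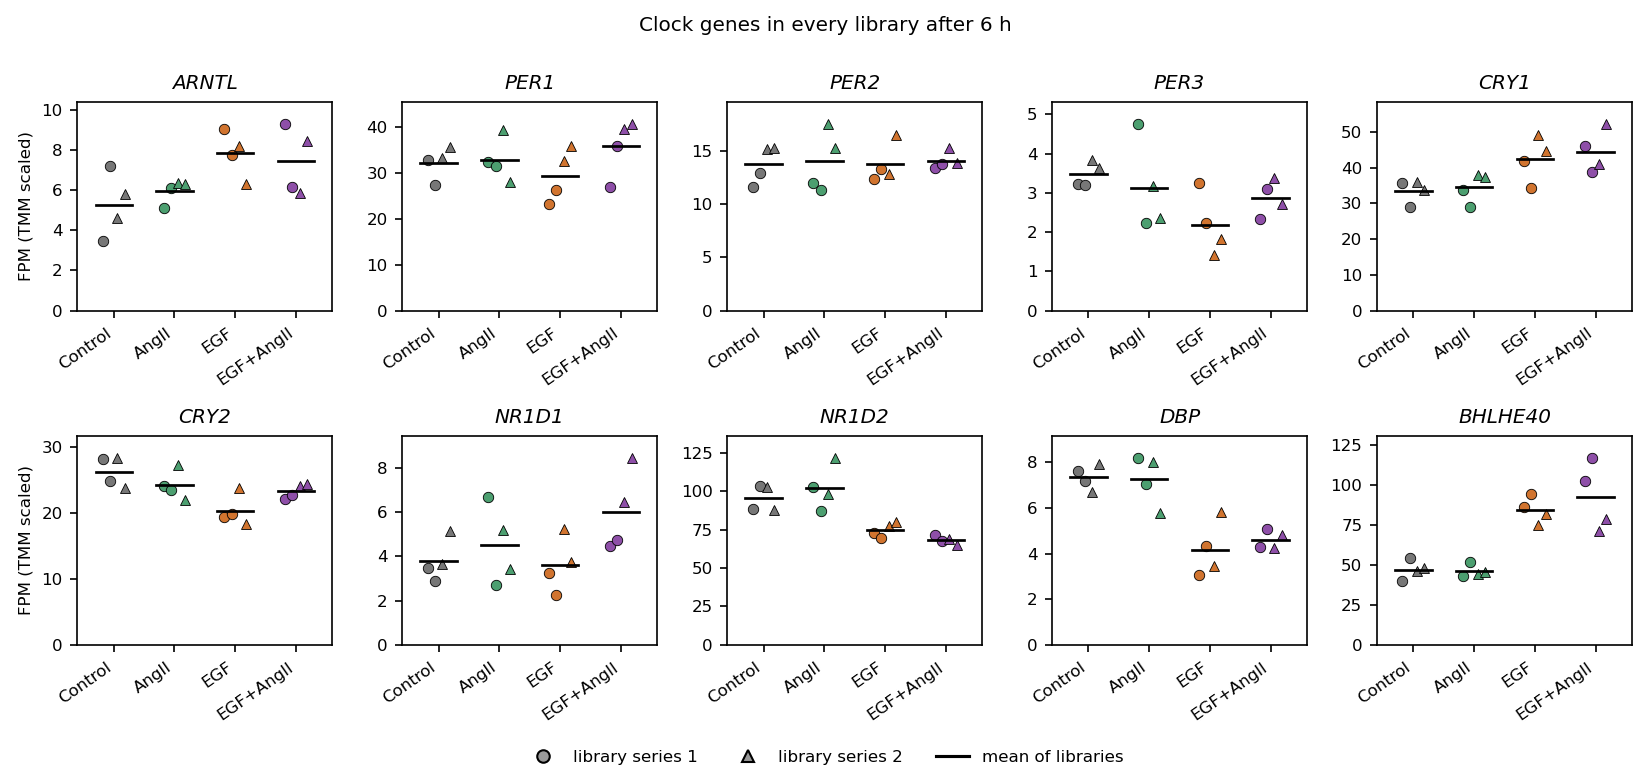
Level of the 10 clock genes in each library after 6 h, in FPM on a linear axis from 0, by condition (4 libraries each). Circles are the first and triangles the second library series, and bars are means. For BHLHE40 all 8 libraries with EGF lie above 71 FPM and all 8 without it below 55 FPM, and for NR1D2 the order is the opposite.

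EGF against Control and EGF+AngII against AngII share no library, so that they give the effect of EGF separately without and with AngII. In the first, BHLHE40 rose (log2 fold change 0.83 ± 0.13, adjusted p = 0.000188 in edgeR) and NR1D2 (-0.35 ± 0.09, adjusted p = 0.0189), DBP (-0.79 ± 0.20, adjusted p = 0.0191) and CRY2 (-0.36 ± 0.11, adjusted p = 0.0468) fell, 4 of 10 genes beside 5.97% of all genes. With single libraries left out the number of calls ranged from 1 to 4: without Control replicate 2 or 3 DBP and BHLHE40 were called, and without EGF replicate 1 only BHLHE40. In the second, BHLHE40 rose (0.99 ± 0.13, adjusted p = 1.73e-05) and NR1D2 fell (-0.58 ± 0.09, adjusted p = 0.000251), 2 of 10 genes beside 5.93%. DBP (-0.67 ± 0.20, adjusted p = 0.0546) and CRY1 (0.37 ± 0.12, adjusted p = 0.0710) did not pass there, but did in the fit blocked by library series. CRY2 was at -0.06 ± 0.11. The libraries of the compared groups did not overlap for NR1D2, DBP and BHLHE40 in the first (12% of all genes) and for these and CRY1 in the second (12.8%). The difference between both effects was not called for any of the 10 genes (the interaction, 0% of all genes called, with 0 of 10 at an unadjusted p under 0.05 and 0 in DESeq2). Its largest estimates among the genes called with EGF were 0.31 for CRY2 (95% interval -0.01 to 0.62) and -0.23 for NR1D2 (-0.49 to 0.04). In EGF+AngII against Control, BHLHE40 (0.96 ± 0.13) and CRY1 (0.41 ± 0.12) rose and NR1D2 (-0.48 ± 0.09) and DBP (-0.68 ± 0.20) fell, 4 of 10 beside 6.10% of all genes. This comparison shares its Control libraries with EGF against Control.

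AngII gave no call of a clock gene after 6 h in edgeR, neither alone against Control (0 of 10, beside 0% of all genes, 0 at an unadjusted p under 0.05), nor averaged over EGF (0 of 10, beside 0.00537% of all genes, 1 at an unadjusted p under 0.05), nor added to EGF (0 of 10, beside 0%, 1 at an unadjusted p under 0.05). DESeq2 gave 0 in each. AngII against Control separated no clock gene without overlap, as against 2.14% of all genes. The estimates alone against Control ran from -0.14 to 0.25, with standard errors of 0.09 to 0.31. NR1D1 was the gene with the unadjusted p under 0.05, with 3.47, 2.87, 3.64 and 5.13 FPM in Control, 6.66, 2.72, 5.17 and 3.41 FPM in AngII, 3.25, 2.24, 5.21 and 3.76 FPM in EGF and 4.47, 4.72, 6.44 and 8.42 FPM in EGF+AngII libraries. Its AngII effect averaged over EGF was 0.50 ± 0.21 on the log2 scale (adjusted p = 0.998 in edgeR).

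Of 27 further clock and clock-linked genes, 25 were tested after 6 h, and 10 passed with EGF averaged over AngII, 6 higher and 4 lower, where 13.6% of all genes were called. Among the partners of BMAL1, NPAS2, the paralogue of CLOCK, rose from a mean of 16 to 27.3 FPM (log2 fold change 0.76 ± 0.10, adjusted p = 6.95e-06 in edgeR). ARNTL2, the paralogue of ARNTL, rose by 0.32 ± 0.07, whereas CLOCK itself was at 0.11 ± 0.07 and not called. BHLHE41 (DEC2), the paralogue of BHLHE40, rose from 4.70 to 8.26 FPM (0.81 ± 0.13). Among the factors that bind D-boxes, TEF (-0.47 ± 0.15) and HLF (-0.61 ± 0.21), which activate them as DBP does, fell, and NFIL3, which represses them, rose from 9.75 to 16.2 FPM (0.72 ± 0.10). All 3 activators of D-boxes were thus lower with EGF averaged over AngII and the repressor was higher, with adjusted p in edgeR of 0.0376 for TEF and 0.0494 for HLF. Neither TEF nor HLF was called as lower in EGF against Control or in EGF+AngII against AngII. The alternative fits were read for the 10 clock genes only. None of 6 kinases and ubiquitin ligases of PER and CRY (CSNK1D, CSNK1E, FBXL21, BTRC, FBXW11 and GSK3B) was called. TIMELESS fell by 0.26 on the log2 scale. Of the CREB input genes CRTC1 fell by 0.26 and CRTC3 rose by 0.17, and of 4 clock outputs KLF10 rose by 0.40. RORA, an activator of ARNTL, was at 0.04 ± 0.08. RORB and CIART were not tested after 6 h.

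**Figure D2:**
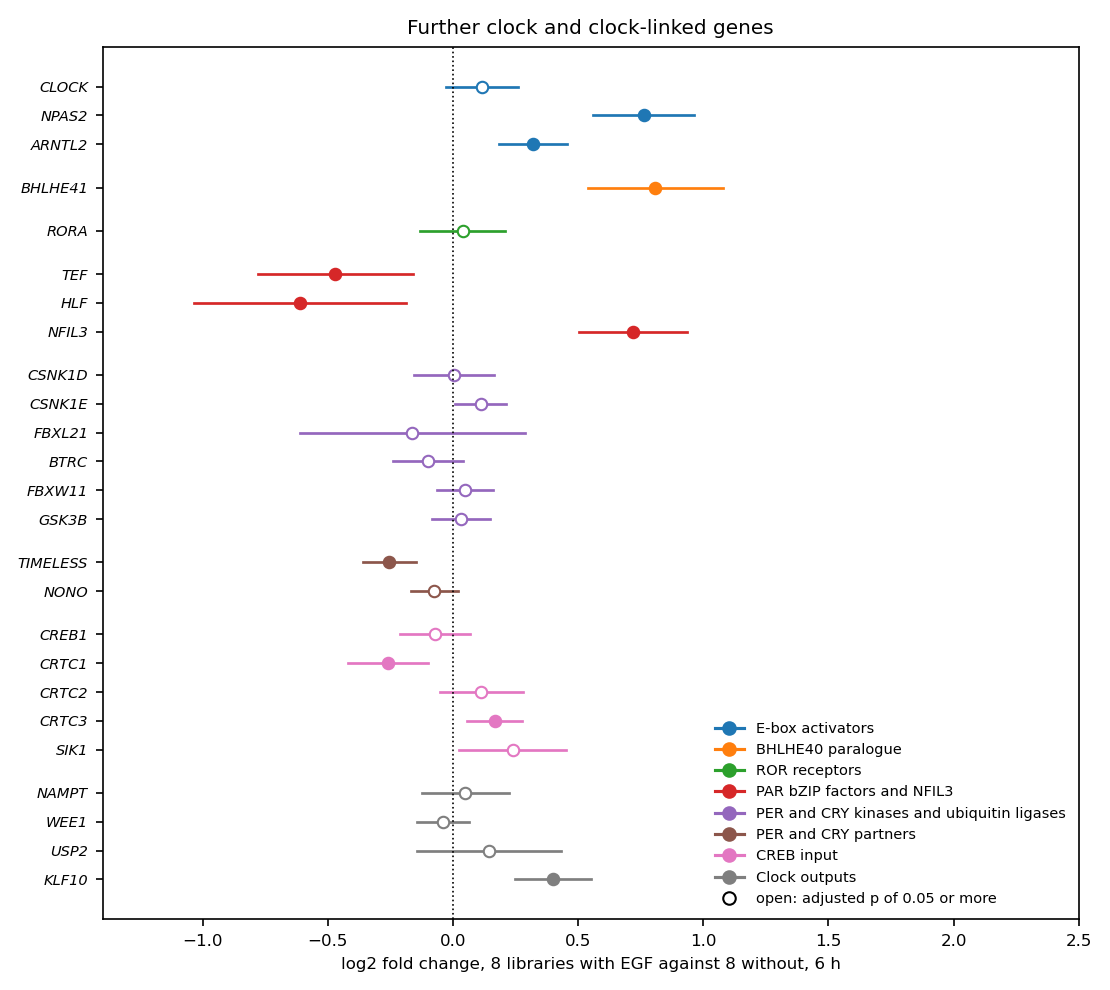
Log2 fold change of 25 further clock-linked genes after 6 h, 8 libraries with EGF against 8 without, with 95% intervals. Colours mark the lists and filled points have an adjusted p under 0.05. NPAS2, BHLHE41 and NFIL3 lie between 0.72 and 0.81 and TEF and HLF at -0.47 and -0.61.

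After 24 h PER1 was the clock gene that was called with EGF averaged over AngII. There, in 7 libraries with EGF against 8 without, 1 of 10 genes was called, where 0.465% of all genes were. With the fold change and FPM filters it was called too, beside 0.239%. Its libraries with and without EGF did not overlap, which held for 0.532% of all genes. The median log2 fold change of the 10 genes was 0.07 and that of all genes tested -0.01.

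PER1, a repressor that is also an immediate target of growth factor and CREB signals, had 14.5, 18.1, 16.1 and 11.4 FPM in Control and 15.6, 17, 21.2 and 16.9 FPM in AngII libraries. It had 21.8, 27.5, 25.1 and 21.6 FPM in EGF and 25.9, 23.7 and 28.1 FPM in EGF+AngII libraries. All 7 libraries with EGF lay above the 8 without it, and the closest pair was AngII replicate 3 and EGF replicate 4. PER1 rose by 0.61 ± 0.11 on the log2 scale, 1.53-fold (adjusted p = 0.0101 in edgeR, exact permutation p = 0.000311). Without EGF+AngII replicate 4, where U1 took 55.6% of the counts, the value was 0.57 and the adjusted p 0.0653. Without both libraries in which U1 took over 50% (this one and AngII replicate 3) it was 0.63, with an adjusted p of 0.0342 in edgeR. In the 2 library series the values were 0.62 and 0.60, with adjusted p of 0.430 and 0.144 in edgeR on 7 and 8 libraries. Against Control, EGF gave 0.67 ± 0.15 (adjusted p = 0.146) and EGF+AngII 0.78 ± 0.16 (adjusted p = 0.106) in edgeR, and against AngII, EGF+AngII gave 0.55 ± 0.16 (adjusted p = 0.624).

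BHLHE40 after 24 h depended on the library series. Control libraries held 66.2 and 85.0 FPM in the first series and 36.0 and 32.5 FPM in the second, and AngII libraries 55.3 and 60.5 against 39.9 and 39.4 FPM. EGF libraries held 99.7 and 97.1 FPM in the first series and 60.8 and 63.8 FPM in the second, and EGF+AngII libraries 89.3 against 59.7 and 68.0 FPM. Within each series every library with EGF was above every library without it, whereas over both series the groups overlapped. How many of all genes were separated in this way within a series was not counted. The log2 fold change was 0.56 ± 0.18 without the series in the fit (adjusted p = 0.247 in edgeR) and 0.65 with the series as a block, where BHLHE40 passed the test (adjusted p = 0.000307). With that block 2 of 10 genes were called, BHLHE40 and PER1, beside 1.2% of all genes. The 2 series also differ in whether the columns are named as filtered, in 7 of 7 libraries of the first series and 1 of 8 of the second, and with this naming as covariate in place of the series BHLHE40 also passed (adjusted p = 0.017).

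The other 8 genes were not called after 24 h. NR1D2, which had fallen after 6 h, had a median of 45.9 FPM without EGF (34.3 to 55.2) and 46.2 FPM with it (38.1 to 55.3), with a log2 fold change of 0.00 and a 95% interval from -0.19 to 0.18. DBP was at -0.02 and CRY1 at 0.14, with intervals from -0.68 to 0.63 and from -0.12 to 0.40. PER2 was at 0.26 ± 0.15 and PER3, from 7 to 43 counts per library, at -0.67 ± 0.29 (adjusted p = 0.457 in edgeR). ARNTL, CRY2 and NR1D1 ranged from -0.06 to 0.28.

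**Figure D3:**
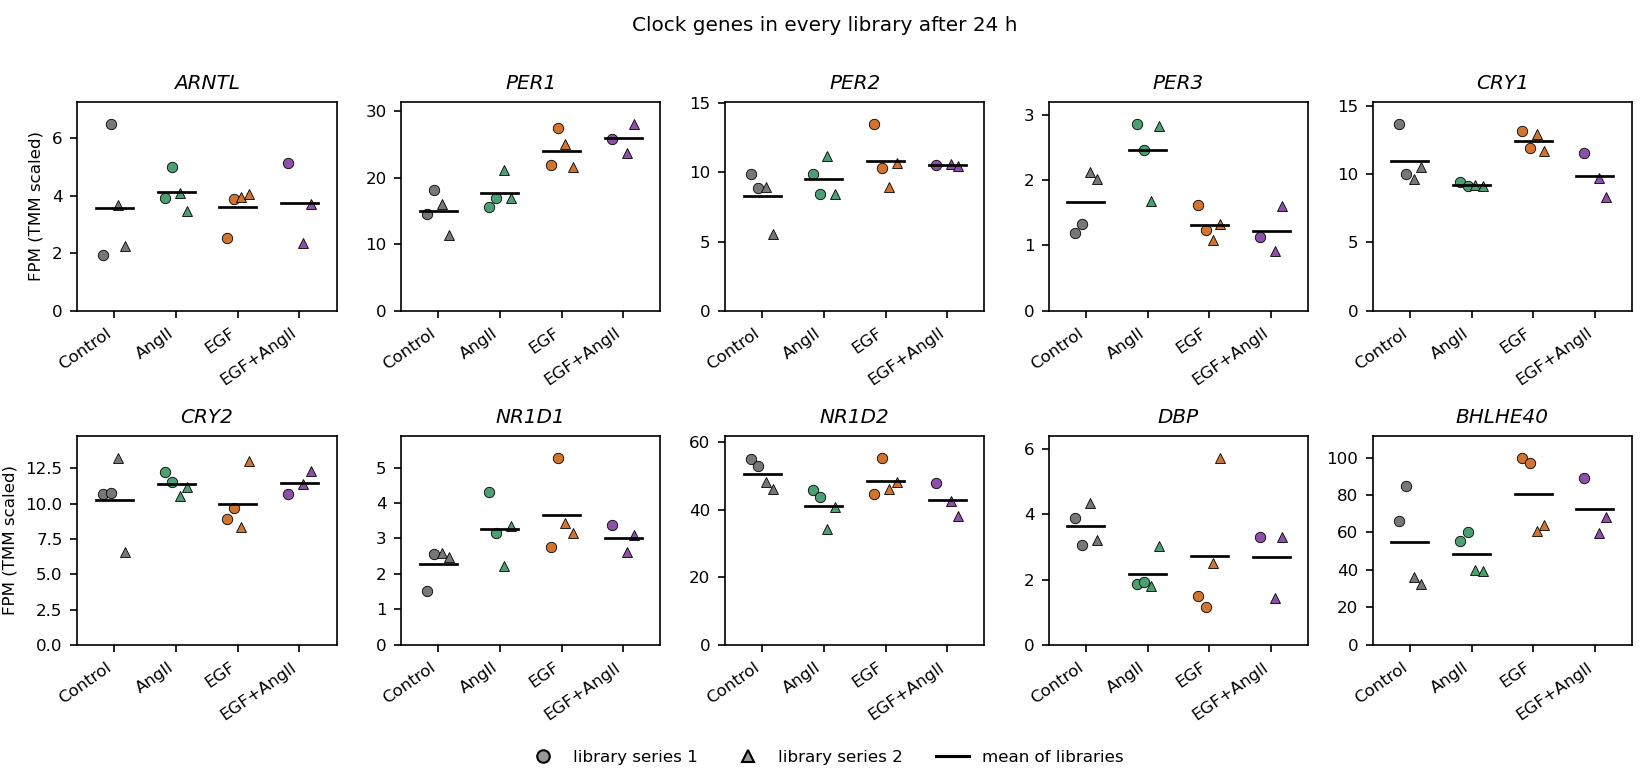
Level of the 10 clock genes in each library after 24 h, in FPM on a linear axis from 0, by condition (4 libraries each, 3 of EGF+AngII). Circles are the first and triangles the second library series, and bars are means. PER1 lies between 11.4 and 21.2 FPM without EGF and between 21.6 and 28.1 FPM with it, and BHLHE40 separates by series as well as by EGF.

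The single comparisons after 24 h gave no call in edgeR without the series in the fit. With the series as a block, BHLHE40 was called in EGF against Control and in EGF+AngII against AngII, and PER1 in EGF+AngII against Control. The shares of all genes called that follow are those of the edgeR fit without the block. Those of the block and of DESeq2 are not given for these comparisons. EGF against Control called 0 of 10 clock genes beside 0.0316% of all genes, with 3 at an unadjusted p under 0.05, and EGF+AngII against AngII 0 of 10 beside 0.0451%, with 3 at an unadjusted p under 0.05. EGF+AngII against Control called 0 of 10 beside 0.0271%, with 1 at an unadjusted p under 0.05. DESeq2 called PER1 in the first and the last of these and none in EGF+AngII against AngII. In EGF against Control the libraries did not overlap for PER1 and NR1D1 (4.43% of all genes), and in EGF+AngII against AngII for PER1 and PER3 (6.95%). NR1D1 had 1.52, 2.56, 2.60 and 2.47 FPM in Control and 2.77, 5.26, 3.43 and 3.15 FPM in EGF libraries, a log2 fold change of 0.67 ± 0.32 (adjusted p = 0.581 in edgeR).

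AngII after 24 h gave 0 calls of 10 in edgeR and in DESeq2 alone against Control (0% of all genes, 1 at an unadjusted p under 0.05), averaged over EGF (0%, 2 at an unadjusted p under 0.05), added to EGF (0%, 0 at an unadjusted p under 0.05) and as interaction with EGF (0%, 0 at an unadjusted p under 0.05). AngII and Control libraries did not overlap for NR1D2, DBP and CRY1, 3 of 10 genes, where this held for 1.97% of all genes. NR1D2 had 45.7, 43.7, 34.3 and 40.9 FPM in AngII against 55.2, 53.0, 48.2 and 46.1 FPM in Control libraries, a log2 fold change of -0.30 ± 0.12. DBP had 1.86, 1.91, 1.81 and 3.04 FPM in AngII against 3.89, 3.06, 4.35 and 3.22 FPM in Control libraries (-0.76 ± 0.42), and CRY1 9.44, 9.16, 9.20 and 9.11 FPM against 13.7, 10.1, 9.66 and 10.5 FPM (-0.25 ± 0.17). All 3 had an adjusted p above 0.99 in edgeR.

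**Figure D4:**
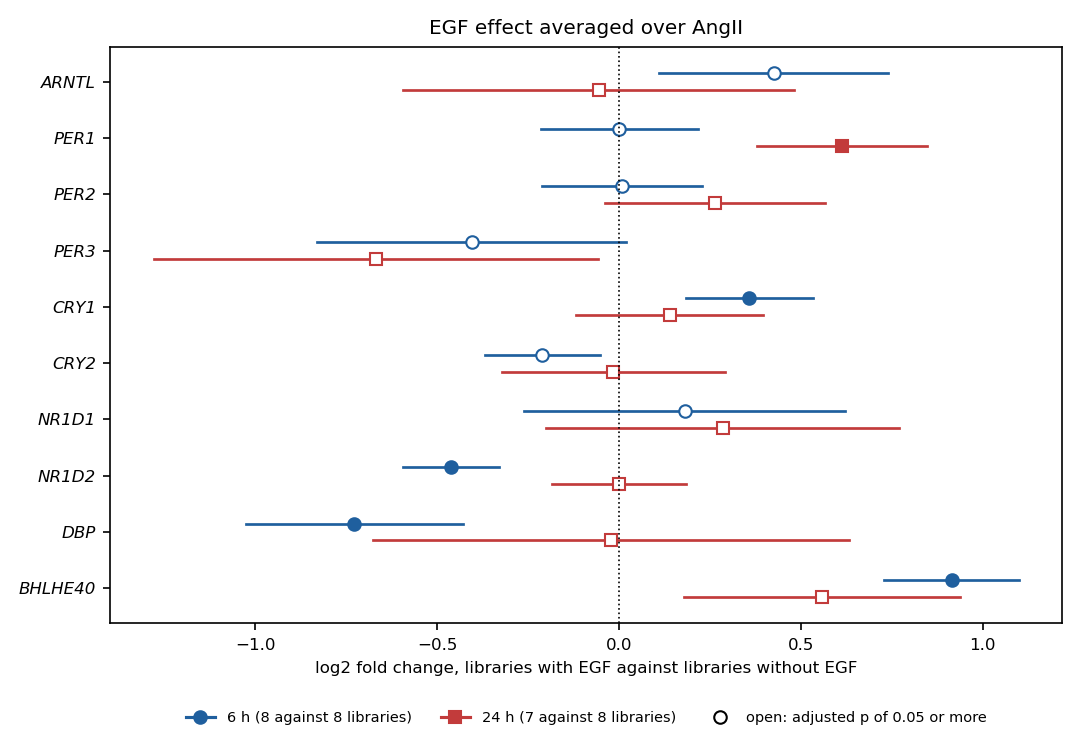
EGF effect averaged over AngII for each clock gene after 6 h (circles) and 24 h (squares), as log2 fold change with 95% intervals. Filled symbols have an adjusted p under 0.05. BHLHE40, CRY1, NR1D2 and DBP are filled at 6 h and PER1 is filled at 24 h.

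The change of the EGF effect from 6 h to 24 h was tested in a joint fit of all 31 libraries. The effect differed for NR1D2, by 0.44 ± 0.11 on the log2 scale (24 h minus 6 h, adjusted p = 0.0300 in edgeR), 1 of 10 genes beside 0.939% of all genes. PER1, at 0.60 ± 0.16, missed the threshold (adjusted p = 0.0532) and passed it with the series block (adjusted p = 0.0131). For DBP the difference was 0.70 ± 0.34 (adjusted p = 0.435), so that a different effect at the 2 times was not shown, and for BHLHE40 and CRY1 it was -0.38 ± 0.22 and -0.23 ± 0.14. The call of NR1D2 was lost in 9 of 31 fits with 1 library removed, with values from 0.40 to 0.48. Among the further genes NPAS2 had a lower effect after 24 h, by -0.83 ± 0.18 (adjusted p = 0.0113), and none of the 27 further genes tested after 24 h was called with EGF averaged over AngII.

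The genes whose levels over the 16 libraries after 6 h were most like those of the 3 clock genes with the smallest p were found among 13001 genes with a mean above 5 FPM by Pearson's r of log2(FPM + 1), as a description. For BHLHE40 these were GBE1 (0.974), KDM3A (0.972), NDRG1 (0.971), USP11 (0.955) and TGFB1 (0.954). For NR1D2 they were KBTBD7 (0.912), KLF11 (0.911), KIAA1109 (0.907), CASD1 (0.907) and PPIP5K2 (0.900), and for DBP LTBP2 (0.930), H6PD (0.926), ZFAT (0.914), SDCCAG3 (0.912) and DTNB (0.904). The points share their libraries and the separation by EGF.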

How the data were processed

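Total RNA from AT1R-transfected HEK293 cells in 4 conditions was measured by sequencing at 6 h and 24 h. The deposited values are raw counts of reads per gene, which the authors made from ribosomal RNA-depleted, paired-end libraries. The submitters' processing notes name Trim Galore, cutadapt 1.8.1, TopHat2 2.0.14, featureCounts 1.4.6 and hg19, whereas the text of the series names HISAT2 as mapper. Genes were annotated by the authors with Ensembl archive 75. The strand setting and the meaning of 8 columns named as filtered among the 15 used after 24 h are not given in the sources used here. The labels name 32 libraries, of which 31 were used.

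Groups were taken from the sample labels, and replicates were numbered in accession order, so that the number is only a name. The first library series holds library numbers 1 to 8 and the second the later ones. After 24 h the library numbers leave a gap between the series, but after 6 h they run on without one. The cut after 6 h was therefore set here, and the labels name no batch at either time. The quasi-likelihood test of edgeR 4.0.16 (R 4.3.3) was run on TMM-scaled counts after filterByExpr, in 1 fit per time point that held all 4 conditions, and in a joint fit for the difference between time points. P-values were adjusted by Benjamini-Hochberg over all genes tested, and 0.05 was the threshold. FPM are counts per 1000000 of the TMM-scaled library, except for the marker genes, where they are counts per 1000000 protein-coding counts. FPKM used protein-coding totals and the union of exons in a lifted GENCODE annotation on hg19, from which coordinates were also taken. For single genes, exact permutation tests of FPM (two-sided) were added, and the rest was described without a test. The permutation p-values are not adjusted, and the shuffling ignored AngII and the library series. With EGF averaged over AngII they were also under 0.05 for genes that edgeR did not call. These were ARNTL and CRY2 (0.0149) after 6 h and PER2 (0.0283), PER3 (0.0106) and BHLHE40 (0.0177) after 24 h. The averaged EGF test was also run on simulated counts that held no differences between library series or in the share of U1. That run therefore does not cover such differences.

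All 10 genes are named. Further genes are named where they passed in an EGF comparison (CLOCK, RORA, the kinases and ubiquitin ligases and the genes not tested were named after their values were seen), and similar genes are the 5 with the highest correlation for each of the 3 clock genes with the smallest p. The clock genes, the lists of further genes and the tests were chosen with earlier results of these data known. Alternatives were DESeq2 1.42.0, its size factors, no filter on low counts, protein-coding genes only, a library series block, an FDR of 0.01, a fold change above 1.5 with FPM above 5, and each library left out in turn. Fits within a series, with the filtered naming as covariate and without the libraries over 50% U1 were chosen after seeing the data. Some listed genes are not reported here. Intervals cover the spread between libraries only.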

Additional observations from a re-analysis of the deposited data

Results flagged for a closer look

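A gap test for a single library far from the others was made in 70 groups of 4 libraries, of which chance alone marks about 1 in 20, or 3.5. It marked 3, all after 24 h. NR1D1 in Control replicate 1 was the lowest of its group, at 1.52 FPM against 2.47 to 2.60 FPM in the others, with a gap of 0.879 of the range. DBP in AngII replicate 4 was the highest, at 3.04 FPM against 1.81 to 1.91 FPM, with a gap of 0.916 of the range. ARNTL in EGF replicate 1 was the lowest, at 2.54 FPM against 3.87 to 4.06 FPM, with a gap of 0.874 of the range. These 3 groups rest on 18 to 73 counts per library, and none of the 3 genes was called after 24 h.

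The effect of EGF on NR1D2 differed between the time points by 0.444 on the log2 scale, from -0.46 after 6 h to 0.00 after 24 h, in the test of the difference itself (adjusted p = 0.0300 in edgeR). Its FPM levels without EGF were 87.2 to 121.5 after 6 h and 34.3 to 55.2 after 24 h, in tables in which protein-coding genes take different shares of the counts, so that these levels are not compared. The share of U1 in a library was at most 0.3% after 6 h and lay between 8.90% and 57.2% at the later time. Without the libraries in which it took over 50%, the difference was 0.45 (adjusted p = 0.0378 in edgeR).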

How the results depend on the processing

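The 4 calls with EGF averaged over AngII after 6 h (BHLHE40, CRY1, NR1D2 and DBP) kept their direction and their call in each of 16 fits that left out 1 library, where the number of calls was 4 to 5, and under DESeq2, its size factors, no filter, protein-coding genes only and the series block. CRY2 passed without EGF replicate 3, and ARNTL without Control replicate 2, EGF replicate 4 or EGF+AngII replicate 3. With the fold change and FPM filters the number was 2, and in library series 1 alone 2. Fits within a series hold fewer libraries. After 6 h, EGF against Control gave 1 call at an FDR of 0.01, 2 with the fold change and FPM filters, 1 in each series alone and 1 to 4 with single libraries left out. EGF+AngII against AngII gave 4 with the series block (CRY1 and DBP added), 1 with the filters, 1 in series 1 and 2 to 3 with single libraries left out. EGF+AngII against Control gave 2 at an FDR of 0.01 and with the filters, 1 in each series alone and 2 to 4 with single libraries left out. After 24 h, EGF averaged over AngII gave 2 calls (PER1 and BHLHE40) with no filter, with the series block and with the filtered naming as covariate, 0 at an FDR of 0.01 and in series 1 alone, and 0 to 1 with single libraries left out, 0 without EGF+AngII replicate 4. EGF against Control gave 1 in DESeq2 (PER1), with the block and in series 2 (BHLHE40). EGF+AngII against AngII gave 1 with the block. EGF+AngII against Control gave 1 in DESeq2, with no filter and with the block (PER1) and in series 2 (BHLHE40). For the difference between time points the count was 2 (PER1 and NR1D2) in DESeq2, with its size factors, among protein-coding genes and with the block, 0 with no filter, at an FDR of 0.01 and with the filters, and 0 to 2 with single libraries left out. NR1D2 lost that call without Control replicate 2 or 3, EGF replicate 1 or 2, EGF+AngII replicate 2 or 4 or AngII replicate 4 of 6 h, or EGF+AngII replicate 1 or 3 of 24 h. For most alternatives the share of all genes called is not given. The causes were not tested. The AngII and interaction counts stayed at 0 in every alternative run.

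Values near 0 that were not called changed sign. After 6 h, PER1 was at -0.011 among protein-coding genes, -0.013 with the block, -0.15 in series 1 and -0.053 to 0.055 with single libraries left out. PER2 was at -0.0023 among protein-coding genes, -0.11 in series 2 and -0.042 to 0.081. NR1D1 was at -0.10 in series 1. After 24 h, NR1D2 was at 0.017 with the block, 0.050 in series 2 and -0.046 to 0.032 with single libraries left out. In series 2, CRY2 was at 0.12, DBP at 0.078 and ARNTL at 0.077, and with single libraries left out they ranged from -0.10 to 0.058, from -0.35 to 0.11 and from -0.20 to 0.17. The NR1D1 difference between time points ranged from -0.037 to 0.20. No paired analysis was possible because no replicate number stands in the labels. Depth limits PER3, NR1D1, DBP and ARNTL, which had from 7 counts per library, and the spread after 24 h limits all 10 genes.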
